A study of Mus musculus with 16 samples.

Results

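The transcripts that rose or fell with age in retinas lacking Gtf2ird1 were measured on 8 of the 16 arrays of the series, 4 from 4-month null mice (labelled BEN-NULL) and 4 from 2-week null mice, chosen by their titles. Each array held total RNA of 1 retina, and the labels call the replicates biological. The other 8 arrays came from wild-type (WT) retinas, 4 at 4 months and 4 at 2 weeks, and serve here as the background of normal ageing. The strain, the design of the null allele and whether it affects every cell type are not given in the labels, and no treatment was applied. The older age is 4 months in the titles and the extraction protocol but 2 months in the growth protocol, and the groups are called 4 months here. Array values are log2 signals per transcript cluster, called a probe set below. For each of 20259 genes the probe set with the highest mean over the arrays was used, and every change below is the 4-month mean minus the 2-week mean on the log2 scale.

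Gtf2ird1 encodes a DNA-binding regulator related to TFII-I, and the title of the study names cone photoreceptors as its subject. As background, mouse eyes open near the younger age. Retinal neurons have by then left the cell cycle, outer segments are still growing to their adult length, and the vessel layers of the inner retina are still being completed. In the adult retina rods far outnumber cones, Muller glia span all layers, and the pigment epithelium behind the photoreceptors recycles the visual chromophore. The lens, the vitreous and the pigment epithelium lie against the retina and can be carried over in dissection.

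The Gtf2ird1 signal fitted the genotype labels. Of the 4 probe sets of Gtf2ird1, 3 read between 4.54 and 5.29 in the 8 null arrays and between 8.22 and 9.55 in the 8 WT arrays. The remaining one, 7008782, had the highest signal and stands for the gene here. It read 10.2 to 10.6 in null and 10.2 to 10.4 in WT arrays, so it does not report the loss. Its row in the deposited table lay apart from rows of the gene's chromosome, so whether it measures Gtf2ird1 is less certain. Signals at or under 5.29 are called below the level of an absent transcript. A difference from a group at that level is one of array signals, and no fold is given for it. Array medians lay between 5.31 and 5.55. All 8 null arrays lacked Xist signal (4.56 to 4.80), whereas 1 of the 4 WT arrays at 4 months and 2 of the 4 at 2 weeks carried it. The sexes were therefore the same at both ages in null but not in WT. Defining retinal genes were high in null retinas at both ages: Crx averaged 11.9 at each age, and Gnat1 12.5 at 4 months and 12.3 at 2 weeks. No pair of arrays correlated above 0.992, and none were identical.

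Genes of neighbouring tissues differed between the null arrays. The mean of 16 lens genes was 10.75, 7.41, 9.55 and 7.48 in the 4 null retinas of 4 months, against 10.84, 12.27, 11.08 and 9.35 at 2 weeks. Replicates 1 and 3 of 4 months were high and replicates 2 and 4 low, and the ages overlapped. The same replicates 1 and 3 carried more of the vitreous and ciliary body genes (list mean 6.59 and 6.72, against 5.97 and 6.19 in replicates 2 and 4) and of the corneal enzyme Aldh3a1 (9.41 and 8.83, against 5.21 and 5.07). The mean of 17 pigment epithelium genes was 6.34, 5.78, 6.56 and 6.41 at 4 months, against 7.48, 7.06, 7.25 and 7.18 at 2 weeks, with no overlap of the ages. Pigment epithelium level and age therefore cannot be told apart within null retinas. Their part in the results below was not tested beyond refitting with each list mean as a covariate. With the lens mean 263 genes were called higher and 612 lower, and with the pigment epithelium mean 14 and 34.

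In the null retina 1947 genes were called (limma adjusted p, Benjamini-Hochberg over 20259 genes, under 0.05), 9.61% of those tested. Of these, 752 were higher at 4 months (3.71%) and 1195 lower (5.9%). Higher genes made up 38.6% of the calls, 25.9% after quantile normalization and 32.2% after median centring, so the split between the directions moved with the scaling. Large changes were mostly falls: 157 genes fell and 52 rose at least 2-fold, and 24 fell and 2 rose at least 4-fold. The median change over all genes was -0.016. The 4 arrays of one age lay wholly above those of the other for 1784 of the called genes and for 3546 of all genes (17.5%), 1557 of them higher (7.69%) and 1989 lower (9.82%) at 4 months. For such a gene the two-sided exact permutation test gives p = 0.0286, the smallest that 4 against 4 arrays allow. Names of predicted genes account for 134 calls and are not given.

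Among the rises, Glb1l3, a member of the beta-galactosidase family, led. It read 11.07, 10.99, 11.12 and 10.96 at 4 months, against 8.93, 7.89, 8.73 and 8.83 at 2 weeks. The 4-month arrays were nearly equal and far above every 2-week array, a 5.43-fold rise (2.44 ± 0.233, SE; limma adjusted p = 1.25e-05). Syne3, which encodes nesprin-3 of the nuclear envelope, read 9.24, 9.35, 9.11 and 9.29 at 4 months, against 7.51, 7.45, 7.79 and 7.74 at 2 weeks. Pde8a, a phosphodiesterase that degrades cAMP, read 9.46, 9.30, 9.39 and 9.48, against 7.71, 7.62, 8.02 and 7.91. The ages lay far apart in both, and the rises were 3.09-fold for Syne3 (adjusted p = 2.63e-08) and 3.02-fold for Pde8a (6.91e-07). Hdc, the enzyme that makes histamine, read 6.81, 6.95, 6.75 and 6.70 at 4 months, against 4.90, 4.81, 4.93 and 4.97 at 2 weeks, where all 4 arrays lay within the level of an absent transcript. The same held for the histone H2A gene H2ac6 at 2 weeks, whose signal rose by 1.80. Tcea3, a transcription elongation factor, rose by 1.75. The other large rises were Pate2 (1.94), the chaperone cofactor Dnajb14 (1.49), the insulin-like peptide Insl5 (1.47), the fatty acid-binding protein Fabp4 (1.46), Tnip2, an inhibitor of NF-kappa-B signalling (1.34), and the centriole protein Cntln (1.33).

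**Figure D1:**
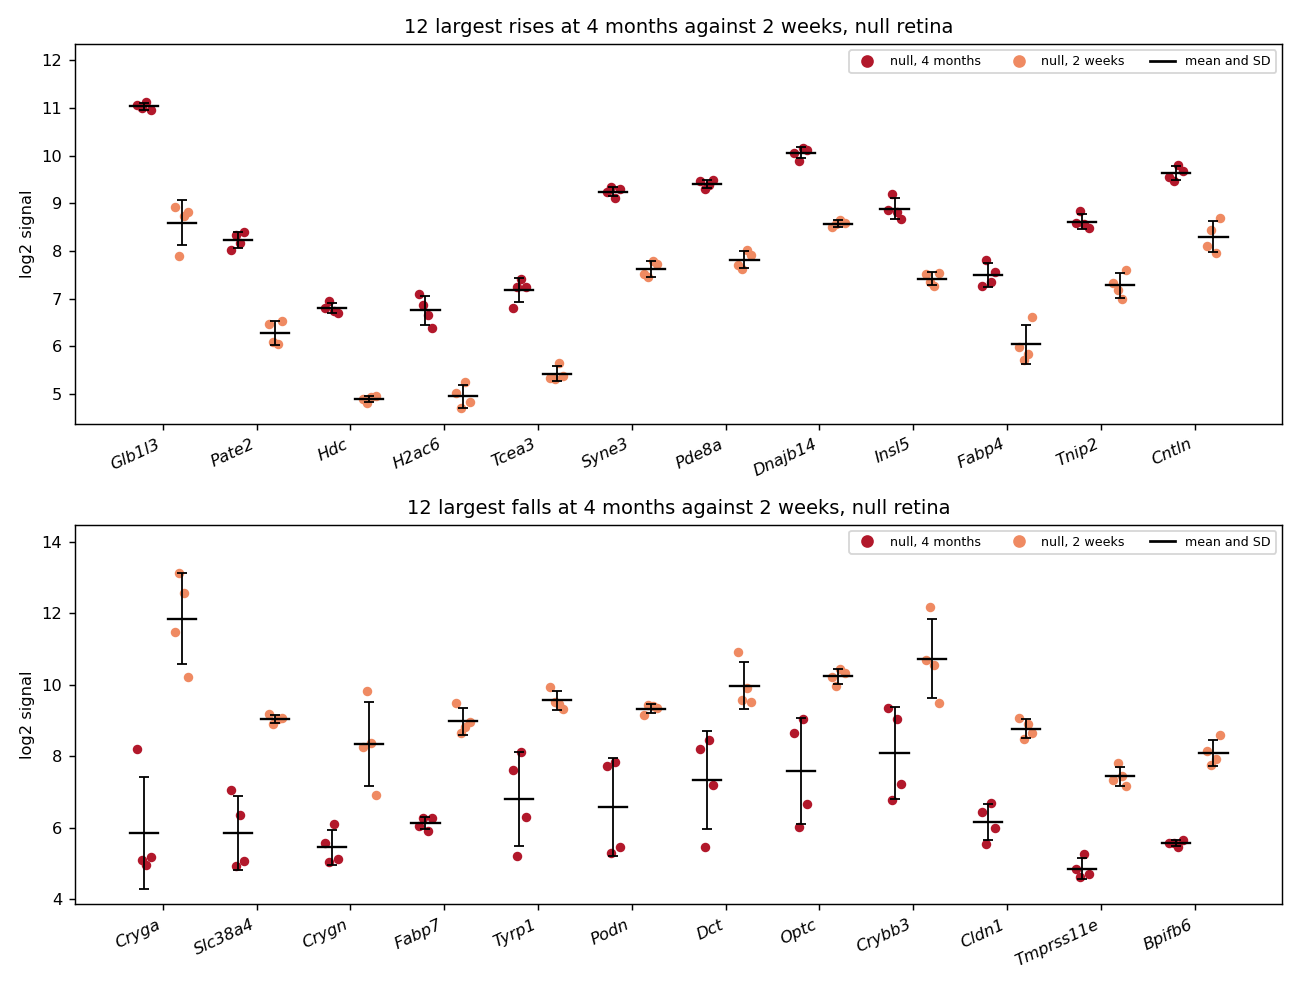
Log2 signal in every null array of the 12 genes with the largest called rises (top) and falls (bottom), 4 months to the left of 2 weeks for each gene; bars give the mean and SD of 4 arrays. In several rises the 4-month arrays lie close together, as for Glb1l3 (10.96 to 11.12), whereas several falls spread widely at 4 months, as for Optc (6.02 to 9.05).

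The 12 largest falls included crystallin, vitreous and pigment genes beside genes of other kinds. Cryga, a gamma crystallin of lens fibres, read 8.21, 5.11, 4.97 and 5.18 at 4 months, against 11.47, 13.14, 12.58 and 10.23 at 2 weeks. Replicate 1 stood above the other 4-month arrays, but the ages did not overlap, and the signal changed by -5.99 ± 0.690 (SE; limma adjusted p = 6.6e-05). The other 3 lay within the level of an absent transcript, so the size of this fall is a difference of signals and not a fold of transcript. Optc, the vitreous protein opticin, read 8.66, 6.02, 9.05 and 6.66 at 4 months, against 10.21, 9.97, 10.45 and 10.32 at 2 weeks. Podn, the matrix protein podocan, read 7.72, 5.31, 7.83 and 5.47, against 9.14, 9.43, 9.40 and 9.34. In both genes replicates 1 and 3 of 4 months were high and replicates 2 and 4 low, as in the lens mean. Their calls (adjusted p = 0.036 and 0.0218) were lost when single arrays were left out, with adjusted p up to 0.118 for Optc without replicate 2 of 4 months and up to 0.077 for Podn without replicate 4. Slc38a4, an amino acid transporter from an imprinted locus, read 7.07, 4.93, 6.37 and 5.06 at 4 months, against 9.18, 8.91, 9.04 and 9.06 at 2 weeks, with the same 2 arrays high and the other 2 within the level of an absent transcript.

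Some other large falls, such as those of Fabp7 and Bpifb6, were even across the arrays. Fabp7, which binds fatty acids in radial and other glia, read 6.06, 6.29, 5.92 and 6.27 at 4 months, against 9.50, 8.64, 8.81 and 8.95 at 2 weeks. The 4-month arrays agreed closely, and the 7.17-fold fall had the smallest adjusted p of the genes named here (1.77e-08). Bpifb6, of the family of lipid-binding BPI-fold proteins, read 5.57, 5.58, 5.47 and 5.67, against 8.16, 7.75, 7.92 and 8.59. Its 4-month values were close to the array medians. Falls of similar size were those of the tight-junction claudin Cldn1 (-2.61) and the membrane protease Tmprss11e (-2.58, all 4-month arrays within the level of an absent transcript). The crystallin Crygn (-2.89) and the beta crystallin Crybb3 (-2.62) also fell by similar amounts. In Crygn 2 of the 4-month arrays lay within the level of an absent transcript, and the Crybb3 call was lost with the lens mean as a covariate. The pigment genes Tyrp1 and Dct, described with their tissue below, complete the 12 largest falls.

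Several genes of rod phototransduction rose, by small steps. In this cascade light-activated opsin drives transducin (Gnat1, Gnb1), which activates the phosphodiesterase Pde6; guanylate cyclases and their activating proteins then restore cGMP. Of 20 measured members 6 rose (30%, against 3.71% of all genes), 1 fell and 13 were not called, and the median change was 0.22 against -0.016 over all genes. With the lens mean or the pigment epithelium mean as a covariate 1 member was called higher, after quantile normalization 3, and without replicate 2 of 4 months or replicate 1 of 2 weeks 3. In the same list 4 rose and 1 fell in WT. Guca1a, the calcium-sensing activator GCAP1, read 11.71, 11.51, 11.75 and 11.74 at 4 months, against 10.68, 10.64, 10.75 and 10.80 at 2 weeks. The gap between the ages was several times the spread within either, and the gene rose 1.94-fold (adjusted p = 3.76e-05). Gucy2f, a retinal guanylate cyclase, read 12.25, 12.32, 12.33 and 12.39, against 11.91, 11.81, 11.99 and 11.93. Guca1b, the second activating protein, rose by 0.47, the transducin subunit Gnb1 by 0.36, the opsin kinase Grk1 by 0.34 and the GTPase accelerator Rgs9 by 0.31. Pdc, which encodes the transducin-binding protein phosducin, was the exception: it read 11.84, 11.82, 11.83 and 11.91, against 12.39, 12.46, 12.38 and 12.14, lower in every 4-month array (adjusted p = 0.032). Gnat1 had a change of 0.22 that was not called (adjusted p = 0.0731), and its ages did not overlap. The phosphodiesterase subunits had changes of 0.17 (Pde6a), 0.16 (Pde6b) and 0.003 (Pde6g), none called. Leaving out 1 array ended the calls of Gucy2f (adjusted p up to 0.0672, without replicate 4 of 4 months), Grk1 (up to 0.0716), Rgs9 (up to 0.0567) and Pdc (up to 0.0801, without replicate 1 of 2 weeks), and the count of risen members ranged from 3 to 9, with 3 without replicate 2 of 4 months or replicate 1 of 2 weeks.

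The start regions of Guca1a and Gucy2f are shown because both genes rose and both carry the letters GGATTA, the core sequence bound by the photoreceptor factor Crx. Here and below, each window runs from 250 bases before to 50 bases after the gene's start in RefSeq (build GRCm38.p6), printed 5′ to 3′ on the gene's strand, with capitals for the letters searched on both strands.
Guca1a (chr17:47400557-47400856, minus strand): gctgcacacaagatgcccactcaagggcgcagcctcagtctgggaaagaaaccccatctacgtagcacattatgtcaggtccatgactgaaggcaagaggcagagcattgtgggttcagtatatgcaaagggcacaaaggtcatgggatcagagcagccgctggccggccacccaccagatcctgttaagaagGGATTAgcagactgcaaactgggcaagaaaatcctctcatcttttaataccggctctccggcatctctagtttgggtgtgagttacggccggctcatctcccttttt
Gucy2f (chrX:142196887-142197186, minus strand): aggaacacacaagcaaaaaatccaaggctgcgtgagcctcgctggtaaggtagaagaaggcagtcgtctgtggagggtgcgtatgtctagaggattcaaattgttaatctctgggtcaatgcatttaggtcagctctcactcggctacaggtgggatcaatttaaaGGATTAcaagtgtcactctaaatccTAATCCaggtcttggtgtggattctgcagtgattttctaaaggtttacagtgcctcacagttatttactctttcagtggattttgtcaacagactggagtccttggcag
GGATTA or its reverse complement TAATCC lay in 7.06% of all 32851 windows and in at least 1 window of 8 of the 14 rod genes that had one (57.1%). Among the 5 risen rod genes with a window it was found in 2. The letters searched here and below were chosen after the values were seen, a gene can have several windows, and a match is a description of the sequence only.

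Of 13 cone phototransduction genes 1 rose and 1 fell (7.69% each way), against 3.71% and 5.9% of all genes. Arr3, the cone arrestin, read 11.66, 11.79, 11.78 and 11.74 at 4 months, against 11.32, 11.19, 11.33 and 11.5 at 2 weeks (0.41 ± 0.123, SE; adjusted p = 0.0475). Opn1mw, the green cone opsin, read 12.02, 12.21, 12 and 12.19, against 12.32, 12.54, 12.36 and 12.42 (adjusted p = 0.0168). Neither gene's ages overlapped, but the steps were small and the Arr3 call was lost on leaving out any of 12 single arrays (adjusted p up to 0.114, without replicate 2 of 2 weeks). That of Opn1mw was lost in 2 such fits (up to 0.0591, without replicate 3 of 4 months). Opn1sw, the short-wavelength opsin, read 12.8 to 13.09 at 4 months and 13.02 to 13.12 at 2 weeks, so the ages overlapped. Gnat2, the cone transducin, had a change of -0.004, and Pde6h, the inhibitory cone phosphodiesterase subunit, one of 0.34 (adjusted p = 0.286).

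Outer segment and transcription factor genes were mixed. Prph2, the peripherin of disc rims, read 12.68, 12.81, 12.61 and 12.68 at 4 months, against 11.93, 12.03, 12.04 and 12.38 at 2 weeks, a 1.52-fold rise. The retinoid exporter Abca4 rose by 0.30, and the axonemal protein Rp1 fell by 0.48. These were 3 of the 4 called genes among 19 of outer segment structure (2 higher, 2 lower). Each direction held 10.5%, against 3.71% higher and 5.9% lower of all genes. Of 17 photoreceptor transcription factors 4 fell (23.5%) and 1 rose (5.88%), against 5.9% and 3.71% of all genes. Prdm1, which steers precursors to the photoreceptor fate, read 6.23, 6.10, 6.13 and 6.31, against 7.32, 7.06, 7.17 and 7.20. Rxrg, the retinoid receptor of cones, read 6.71, 6.32, 6.44 and 6.38, against 7.22, 7.33, 7.41 and 7.5. Both factors were lower in each 4-month array, with falls of 1.99-fold and 1.87-fold. The eye-field factor Rax (-0.43) and Neurod1 (-0.32) fell and Mef2c rose (0.45), all 3 with adjusted p between 0.0371 and 0.0429 and lost on leaving out single arrays (up to 0.128). Crx (0.09), Nrl (-0.10), Otx2 (-0.12) and Thrb (0.18) were not called.

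The visual cycle regenerates 11-cis retinal from bleached pigment. Of 13 genes 2 rose (15.4%) and 4 fell (30.8%), against 3.71% and 5.9% of all genes. Rdh10, a retinol dehydrogenase, read 9.31, 9.34, 9.31 and 9.29 at 4 months, against 10.10, 9.87, 10.17 and 10.10 at 2 weeks. The 4-month arrays were almost equal and below all of 2 weeks (change -0.75, adjusted p = 0.000513). Its other probe set, of lower signal (mean 5.89), had a change of 0.07 that was not called. With the mean over all probe sets the change was -0.34 and the Rdh10 call was lost. The dehydrogenases Rdh11 (-0.51) and Rdh12 (-0.37) fell too, as did Lrat, the retinol-esterifying enzyme of the pigment epithelium (-0.94), and the retinaldehyde reductase Dhrs3 rose by 0.39. The calls of Rdh12, Lrat, Abca4 and Dhrs3 were lost without single arrays, with adjusted p up to 0.0752, 0.0951, 0.0667 and 0.129 in that order. Thyroid hormone genes, which time cone opsin choice, showed 1 rise (10%) and 4 falls (40%) among 10. Dio2, the deiodinase that activates thyroid hormone, read 8.25, 8.32, 8.24 and 8.46, against 9.77, 9.27, 9.80 and 9.52, a 2.42-fold fall in all 4 older arrays. Dio3, the inactivating deiodinase, fell by 0.57 to 4.72, within the level of an absent transcript, the corepressor Hr by 0.76, and Rxrg is the fourth fall of the list. The coactivator Ncoa1 rose by 0.37, a call lost without single arrays (up to 0.0555).

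The called genes of inner retinal neurons all fell, in contrast to those of the photoreceptor synapse. At the photoreceptor ribbon synapse 3 of 20 genes rose (15%) and 1 fell (5%), against 3.71% and 5.9% of all genes. Rims2, a protein of the release site, read 10.54, 10.57, 10.51 and 10.46 at 4 months, against 10.03, 9.95, 9.99 and 10.08 at 2 weeks (1.42-fold, adjusted p = 0.000688). Its other probe set, of lower signal (mean 8.48), had a change of -0.18 that was not called. With the mean over all probe sets the change was 0.16 and the Rims2 call was lost. The adhesion protein Elfn1 (0.45) and the calcium channel Cacna1f (0.30) rose and Lrit1 fell by 0.40, and each of these 3 calls was lost without single arrays (adjusted p up to 0.0626, 0.148 and 0.107). Among bipolar cell genes 4 of 17 fell (23.5%, against 5.9% of all genes) and none rose. Isl1, a transcription factor of ON bipolar cells, read 8.98, 9.18, 8.87 and 8.98, against 9.68, 9.50, 9.76 and 9.52. Scgn, a calcium-binding protein of cone bipolar cells, fell by 0.58, Grm6, the glutamate receptor of ON bipolar cells, by 0.55, and Irx6 by 0.53 with overlapping ages. The call of Irx6 was lost without single arrays (adjusted p up to 0.115).

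Amacrine cells use several neuropeptides, and 3 of these were among the 5 of 18 amacrine genes that fell, while none rose. The falls made up 27.8%, against 5.9% of all genes. Vip read 5.46, 5.97, 5.57 and 5.48 at 4 months, against 6.67, 6.53, 6.94 and 7.44 at 2 weeks. Npy read 7.76, 7.74, 8.10 and 7.92, against 9.03, 8.36, 8.50 and 9.73. Both peptide transcripts were lower in every older array, 2.42-fold and 2.03-fold. The tachykinin precursor Tac1 fell by 0.71 and tyrosine hydroxylase, Th, which marks dopaminergic amacrine cells, by 0.68, and the adaptor Dab1 by 0.42, whereas the GABA-synthesising enzymes Gad1 (-0.27) and Gad2 (-0.04) were not called. The calls of Npy, Tac1 and Dab1 were lost without single arrays (up to 0.0651, 0.0645 and 0.0916), and the count of falls ranged from 2 to 7, with 2 without replicate 1 or 4 of 4 months or replicate 1 of 2 weeks. Horizontal cell genes had 3 falls among 10 (30%). These were led by the calcium buffer Calb1 (9.68, 9.90, 9.50 and 9.80, against 10.69, 10.16, 10.62 and 11.03), with Ndnf (-0.51) and Tpm3 (-0.37, lost without single arrays, up to 0.11). Ganglion cell genes had 5 falls among 17 (29.4%). Chrna6, a nicotinic receptor subunit, read 10.44, 10.73, 10.55 and 10.48, against 11.33, 10.98, 11.23 and 11.28, and the neurofilaments Nefh (-0.64) and Nefm (-0.54), gamma-synuclein Sncg (-0.62) and the POU factor Pou4f3 (-0.63) fell as well. In WT 9 of the same 17 fell. The null count was 9 after quantile normalization and 9 with only the null arrays in the fit, and it ranged from 5 to 11 on leaving out 1 array, with 11 without replicate 1 of 2-week WT. Pou4f3 lay within the level of an absent transcript at 4 months. Fewer cells of a type and less RNA in each cell cannot be told apart in whole retinas, here and for the other cell types.

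Several inhibitory receptor genes fell, while most channel genes were not called. Of 16 genes for GABA and glycine receptors and chloride transporters 5 fell and none rose: Gabra4 (-0.61), Glra2 (-0.60), Gabra3 (-0.55), Gabrb2 (-0.41) and Gabrr1 (-0.35). The falls made up 31.2%, against 5.9% of all genes. Gabra3 read 10.37, 10.52, 10.25 and 10.15 at 4 months, against 10.94, 10.87, 10.98 and 10.72 at 2 weeks. Glutamate receptors had 1 fall among 14 (7.14%), Grm6. No potassium or HCN channel of 14 was called by limma, with 2 higher and 2 lower at an unadjusted p under 0.05. Sodium channels moved in both directions, with 1 rise (12.5%, against 3.71% of all genes) and 2 falls (25%) among 8. Scn3a, the subunit typical of immature neurons, read 6.53, 7.18, 6.59 and 7.0 at 4 months, against 7.55, 7.44, 7.65 and 7.46 at 2 weeks. Scn8a, the main adult subunit at axon initial segments, read 8.88, 8.89, 8.77 and 8.95, against 8.26, 7.84, 8.41 and 8.33. The first was lower and the second higher in every older array, with adjusted p of 0.0145 and 0.00689, and Scn3b, an auxiliary subunit, fell by 0.88. The calls of Gabra4, Gabrb2, Gabrr1 and Scn3a were lost without single arrays (up to 0.0799, 0.122, 0.0781 and 0.0516), and the count of GABA and glycine falls ranged from 2 to 5, with 2 without replicate 1 or 3 of 4 months or replicate 4 of 2 weeks. Axon guidance genes had 2 falls among 24 (8.33%, against 5.9% of all genes), Plxna4 (-0.75) and Sema6a (-0.38), the second with overlapping ages and lost without single arrays (up to 0.103). That count was 7 after quantile normalization and ranged from 1 to 6 on leaving out 1 array, with 6 without replicate 1 of 2-week WT.

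**Figure D2:**
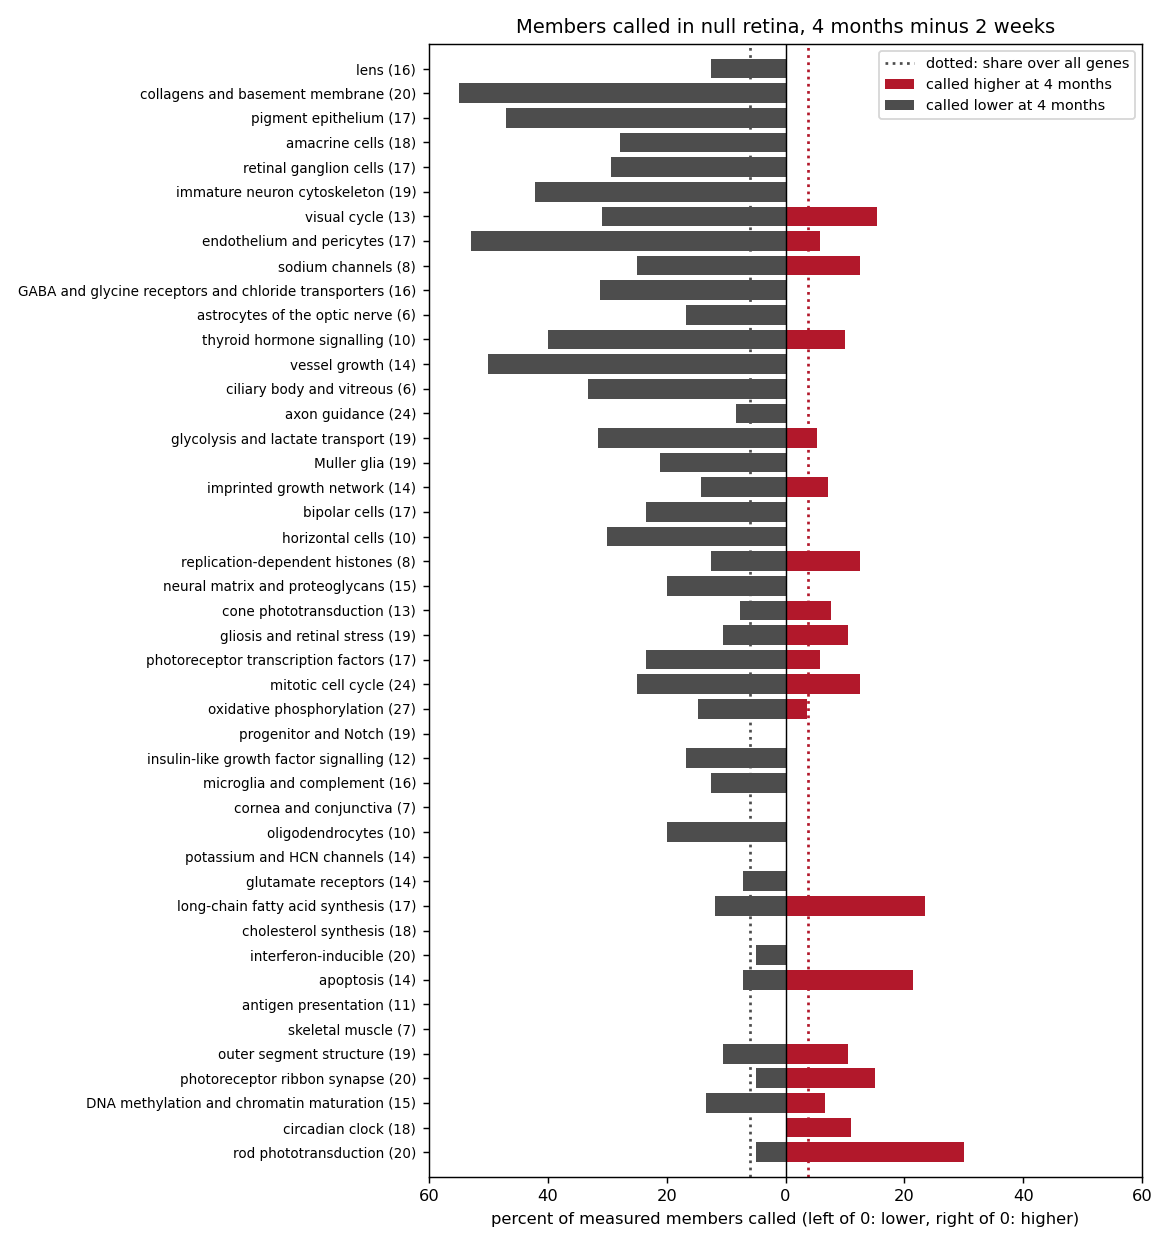
Percent of the measured members of each gene list called higher (right) or lower (left) at 4 months in null retina, with the number of measured members in brackets; lists are ordered by their median change and lists with fewer than 6 measured members are left out. Dotted lines mark the shares over all genes, 3.71% higher and 5.9% lower; collagens, vessels and pigment epithelium reach far left and rod phototransduction furthest right.

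Some Muller glia genes fell, and markers of reactive glia moved in both directions. Of 19 Muller glia genes 4 fell (21.1%, against 5.9% of all genes) and none rose. Car14, the membrane carbonic anhydrase of Muller cells and pigment epithelium, read 9.75, 9.67, 9.72 and 9.58 at 4 months, against 11.09, 10.58, 10.99 and 11.40 at 2 weeks. It fell by 1.34, with the older arrays close together (adjusted p = 3.76e-05), and the Notch target Hes1 (-0.58), Id3 (-0.56, within the level of an absent transcript at 4 months) and the glutamate transporter Slc1a3 (-0.38) fell less. The ages of Slc1a3 overlapped, and those 3 calls were lost without single arrays (adjusted p up to 0.0793, 0.076 and 0.0899). Glul (-0.14), Rlbp1 (-0.18) and Aqp4 (-0.004) were not called. Among 19 genes of gliosis and stress, metallothionein Mt2 (0.64) and the stress factor Atf3 (0.59) rose, and the endothelin receptor Ednrb (-1.13) and the cell-cycle inhibitor Cdkn1a (-0.40) fell. Each direction held 10.5% of them, against 3.71% higher and 5.9% lower of all genes. Gfap, the intermediate filament of reactive glia, read 5.18 to 5.45 at 4 months and 5.25 to 5.66 at 2 weeks and was not called (-0.16, adjusted p = 0.444). Microglia and complement genes had 2 falls among 16 (12.5%), Csf1r by 0.43 and C1qc by 0.39 to the level of an absent transcript. Interferon-inducible genes had 1 fall among 20 (5%), Ifit2 by 0.60. Against 5.9% of all genes, the interferon share was no higher, and the microglia share rested on 2 genes. Antigen presentation genes had no limma call among 11 (3 higher and 0 lower at an unadjusted p under 0.05). The calls of Mt2, Cdkn1a, C1qc and Ifit2 were lost without single arrays (up to 0.0593, 0.117, 0.0747 and 0.0729).

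The pigment epithelium makes melanin through Tyr, Tyrp1 and Dct. Of 17 genes of this tissue 8 fell and none rose, a median change of -0.65, with 2 falls and 1 rise in WT. The null falls made up 47.1%, against 5.9% of all genes. Tyrp1 read 7.61, 5.21, 8.12 and 6.30 at 4 months, against 9.94, 9.51, 9.48 and 9.33 at 2 weeks. Dct read 8.21, 5.47, 8.46 and 7.20, against 10.92, 9.57, 9.91 and 9.52. The older arrays spread widely, with replicates 1 and 3 the highest, yet no older array reached a younger one, and the falls were 6.74-fold and 6.24-fold. Pmel, the fibril protein of melanosomes, was even: 5.25, 5.08, 5.36 and 5.58, against 7.63, 6.99, 7.01 and 6.61 (adjusted p = 1.21e-05). Tyr, with 3 of 4 older arrays within the level of an absent transcript, fell by 1.12, the melanosome transporter Oca2 by 1.35, Krt18 by 0.65 and Mlana by 0.64. Rpe65, the isomerase of the visual cycle, had a change of -1.57 that was not called (adjusted p = 0.147), and the choroid plexus and pigment epithelium gene Ttr one of -0.04. The call of Oca2 was lost without single arrays (up to 0.0769). Because the mean of these genes is the covariate named above, that refit cannot speak to them: it took the changes of Tyrp1 and Oca2 to 0.01 and that of Dct to 0.44.

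The windows of the melanin enzymes are shown since all 3 fell, with the letters CATGTG, the E-box form known in genes of pigment cells, in capitals.
Tyrp1 (chr4:80833963-80834262, plus strand): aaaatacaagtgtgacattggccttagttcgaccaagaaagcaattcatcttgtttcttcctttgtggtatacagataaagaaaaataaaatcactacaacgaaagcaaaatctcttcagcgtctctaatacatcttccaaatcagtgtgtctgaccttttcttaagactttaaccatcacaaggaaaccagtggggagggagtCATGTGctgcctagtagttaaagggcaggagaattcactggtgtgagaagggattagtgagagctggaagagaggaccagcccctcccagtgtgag
Dct (chr14:118052197-118052496, minus strand): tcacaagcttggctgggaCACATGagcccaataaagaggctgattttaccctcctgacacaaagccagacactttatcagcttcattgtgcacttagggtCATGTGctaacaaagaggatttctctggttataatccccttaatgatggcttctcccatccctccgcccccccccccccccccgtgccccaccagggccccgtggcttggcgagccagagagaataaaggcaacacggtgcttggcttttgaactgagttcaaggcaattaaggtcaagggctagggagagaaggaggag
Tyr (chr7:87493463-87493762, minus strand): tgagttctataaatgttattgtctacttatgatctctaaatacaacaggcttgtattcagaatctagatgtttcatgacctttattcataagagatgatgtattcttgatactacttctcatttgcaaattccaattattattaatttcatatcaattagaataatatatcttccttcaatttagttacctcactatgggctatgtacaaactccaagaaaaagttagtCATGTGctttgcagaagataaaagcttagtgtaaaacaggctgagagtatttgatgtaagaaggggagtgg
CATGTG or CACATG lay in 14.2% of all windows and in 6 of the 13 pigment epithelium genes with a window (46.2%), including 4 of 6 that fell, the fourth being Oca2. The Dct window holds the letters in both orientations. Lens genes were all lower in mean at 4 months (16 of 16, median -1.67), but only Cryga and Crybb3 were called, and the arrays of both ages varied widely; in WT the median was -0.12 and 1 was called. Without replicate 1 of 4 months, the older array with the highest lens mean, 5 lens genes were called lower. Oligodendrocyte genes had 2 falls among 10 (Ermn, Cnp), astrocyte genes 1 among 6 (Pdgfra), and vitreous and ciliary body genes 2 among 6 (Optc, Col9a1). These were 20%, 16.7% and 33.3%, and the lens falls 12.5%, against 5.9% of all genes. Ermn lay within the level of an absent transcript at 4 months, and single arrays decided the calls of Ermn (adjusted p up to 0.133) and Cnp (up to 0.086). Muscle and corneal genes, 7 each, had no limma call, with 1 and 2 at an unadjusted p under 0.05.

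Many vessel genes fell in the null retina. Of 17 endothelial and pericyte genes 9 fell and 1 rose, and of 14 vessel growth genes 7 fell, against 5.9% of all genes. In WT 7 of the first list fell and 1 rose, and 1 of the second fell. Apln, the ligand apelin made by sprouting tip cells, read 4.67, 4.68, 4.82 and 5.18 at 4 months, against 6.75, 6.25, 6.64 and 6.65 at 2 weeks. All older values lay within the level of an absent transcript, and the signal fell by 1.73 (adjusted p = 1.26e-06). Its receptor Aplnr, at the same low level at 4 months, fell by 1.12. Cdh5, the cadherin of endothelial junctions, read 5.96, 6.22, 6.24 and 6.34, against 7.51, 7.48, 8.33 and 7.36. Genes of pericytes fell too. Rgs5 read 9.20, 9.54, 9.31 and 9.66, against 10.66, 10.47, 10.69 and 10.85. Abcc9 and Kcnj8, the subunits of the pericyte potassium channel, fell by 1.32 and 1.31, and no older array of either reached a younger one. Vegfa, the growth factor that draws vessels into the retina, fell by 0.74, Esam by 0.75, Pdgfrb by 0.60 and Eng by 0.50, the last 2 with calls lost without single arrays (up to 0.0702 and 0.127). The VEGF receptor Kdr was the only riser: 10.58, 10.79, 10.65 and 10.82, against 10.01, 9.67, 10.24 and 10.01 (1.66-fold, adjusted p = 0.00307). In the same list Pecam1 (-0.04) and Vwf (-0.04) were not called. Leaving out 1 array left 6 to 10 endothelial and pericyte falls but 2 to 7 vessel growth falls, of which 2 are the collagens Col4a1 and Col4a2; Aplnr was lost in 7 of the 16 fits (adjusted p up to 0.0701, without replicate 3 of 2 weeks).

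A large share of matrix genes fell. Of 20 collagen and basement membrane genes 11 fell and none rose (55%, against 5.9% of all genes, median -0.67), and 6 fell in WT. Sparc, a collagen-binding glycoprotein, read 6.36, 6.26, 6.15 and 6.18 at 4 months, against 7.71, 7.80, 7.71 and 7.53 at 2 weeks. Col9a1, a fibril-associated collagen of the vitreous, read 7.09, 7.29, 7.38 and 7.42, against 8.68, 8.38, 9.12 and 8.56. Both were level among the older arrays and fell 2.73-fold and 2.63-fold. The basement membrane collagens behaved otherwise. Col4a1 read 7.03, 5.59, 7.17 and 5.66 at 4 months, against 7.81, 8.34, 8.36 and 7.41 at 2 weeks, and Col4a2 read 6.84, 5.76, 7.07 and 6.15, against 7.91, 8.14, 8.25 and 7.38. In both, replicates 1 and 3 of 4 months were high, as in the lens mean, and the calls (adjusted p = 0.0418 and 0.0191) were lost without replicate 2 (0.129 and 0.0679). The laminin chains Lamb1 (-1.16), Lamc1 (-0.89) and Lama1 (-0.53), fibronectin Fn1 (-0.85) and the fibrillin Fbn2 (-0.71, to the level of an absent transcript) fell, Lamc1 and Lama1 with calls lost without single arrays (up to 0.0592 and 0.0562). Nid1 had a change of -2.91 that was not called (adjusted p = 0.145). The list mean was 6.51, 6.02, 6.57 and 6.11 at 4 months, against 7.08, 7.09, 7.27 and 6.93 at 2 weeks. Leaving out 1 array left 6 to 13 collagen and basement membrane falls, the fewest without replicate 4 of 4 months or replicate 3 of 2 weeks. With the lens mean as a covariate 4 falls were called among these genes, 2 in vessel growth and 3 in pigment epithelium. Proteoglycans of neural tissue had 3 falls among 15 (20%, against 5.9% of all genes), led by Ncan (neurocan, -0.97). The calls of Bgn and Cspg5 were lost without single arrays (adjusted p up to 0.139 and 0.115), which left 1 to 3 falls.

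**Figure D3:**
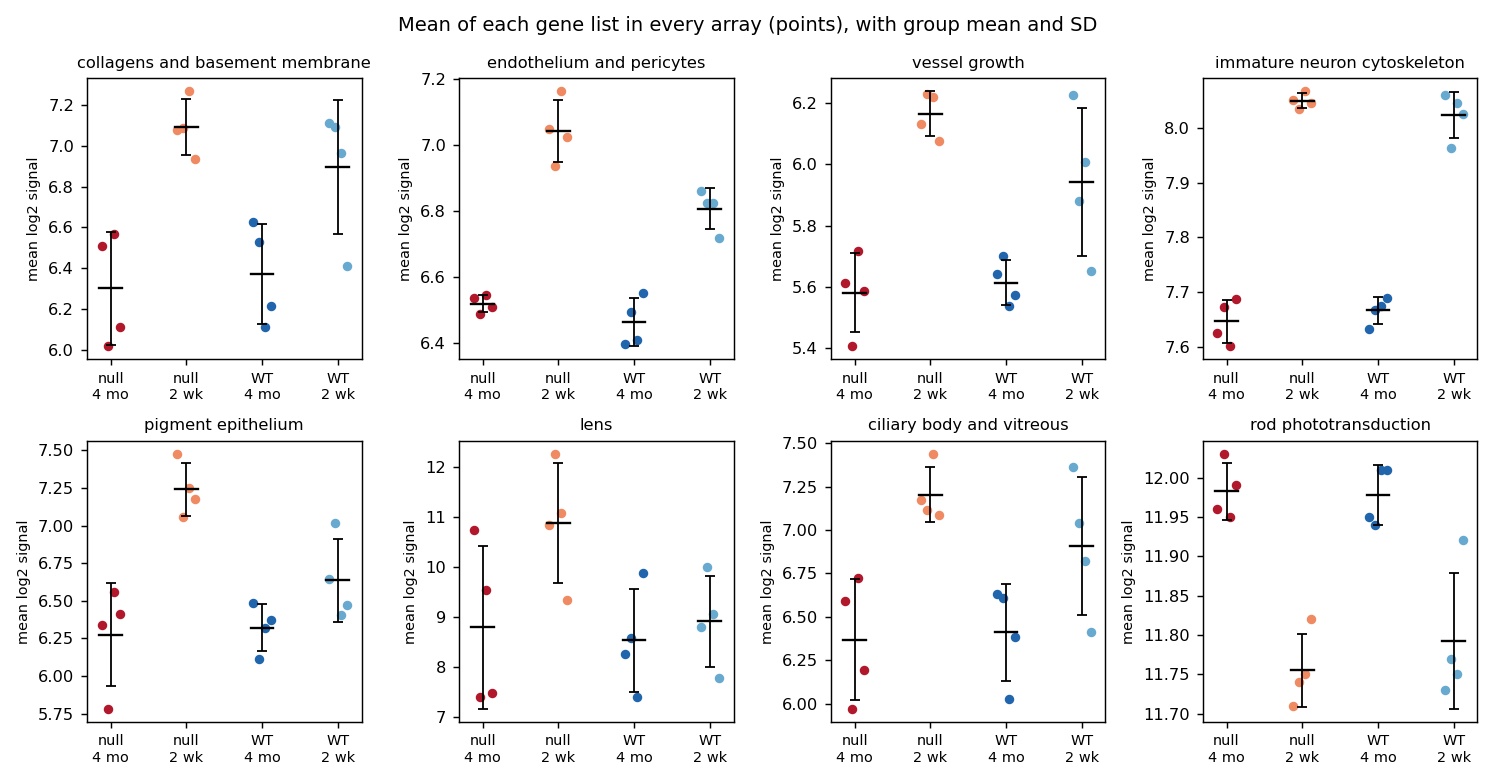
Mean log2 signal of 8 gene lists in each of the 16 arrays, by genotype and age; bars give the group mean and SD (n = 4). The null ages do not overlap in collagens, vessels, immature neuron cytoskeleton, pigment epithelium, vitreous and rod lists, while those of the lens list overlap (7.41 to 10.75 at 4 months, 9.35 to 12.27 at 2 weeks).

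Col4a1 and Col4a2 lie head to head on chromosome 8, and their windows are shown because both fell and their start regions overlap. The 78 bases common to both windows (chr8:11312777-11312854) are in capitals, read from opposite strands.
Col4a1 (chr8:11312777-11313076, minus strand): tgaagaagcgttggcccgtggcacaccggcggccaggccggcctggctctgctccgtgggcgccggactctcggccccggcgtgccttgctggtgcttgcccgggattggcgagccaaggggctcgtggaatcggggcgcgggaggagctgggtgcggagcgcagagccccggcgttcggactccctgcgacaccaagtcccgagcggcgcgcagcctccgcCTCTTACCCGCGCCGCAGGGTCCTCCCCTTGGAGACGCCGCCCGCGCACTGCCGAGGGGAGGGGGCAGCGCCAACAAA
Col4a2 (chr8:11312555-11312854, plus strand): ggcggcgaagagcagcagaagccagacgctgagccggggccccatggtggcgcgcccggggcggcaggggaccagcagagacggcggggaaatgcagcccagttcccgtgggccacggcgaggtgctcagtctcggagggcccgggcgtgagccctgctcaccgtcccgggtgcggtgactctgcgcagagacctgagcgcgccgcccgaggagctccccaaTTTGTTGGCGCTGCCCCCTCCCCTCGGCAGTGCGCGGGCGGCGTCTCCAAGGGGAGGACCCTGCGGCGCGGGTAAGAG

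Many genes of young neurons fell. Of 19 genes for the cytoskeleton and growth of immature neurons 8 fell and none rose, and 9 fell in WT. The null falls made up 42.1%, against 5.9% of all genes. Tubb2b, a tubulin of migrating neurons, read 6.17, 6.41, 6.24 and 6.21 at 4 months, against 7.77, 7.82, 7.03 and 7.81 at 2 weeks. Nrep, a protein of regenerating neurons, read 8.09, 7.97, 8.17 and 8.02, against 9.10, 9.11, 9.10 and 9.31. The older arrays agreed closely in both, with falls of 2.55-fold and 2.13-fold. Marcksl1 fell by 0.99 and Tubb3 by 1.01, and the neuronal migration protein Dcx fell by 0.39, to 5.58, a call lost without single arrays (up to 0.133). The list mean was 7.63, 7.67, 7.6 and 7.69 at 4 months, against 8.05, 8.03, 8.07 and 8.05 at 2 weeks, with little spread at either age. The row of Tubb3 in the deposited table had at most 1 row of its own chromosome among its neighbours, as had those of Tpm3, Hk1, Cycs, Hmgb3 and Hdac1, so which gene these probe sets measure is less certain. Progenitor and Notch genes had no limma call among 19 (0 higher and 4 lower at an unadjusted p under 0.05).

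Cell-cycle genes split. Of 24 mitotic genes 6 fell (25%) and 3 rose (12.5%), against 5.9% and 3.71% of all genes. Plk1, the kinase of mitotic entry, read 6.41, 6.38, 5.76 and 6.09 at 4 months, against 7.57, 7.16, 7.47 and 8.15 at 2 weeks, a 2.69-fold fall. Mki67, the proliferation marker, read 5.17, 4.74, 4.89 and 4.86, against 5.60, 5.59, 5.90 and 5.43, and the topoisomerase Top2a fell by 0.46. Mki67 at 4 months and Top2a at both ages lay within the level of an absent transcript. Of the other falls, Cdk1 did so in 4 older and 2 younger arrays, and Kif11 in 2 older arrays. The calls of Cdk1 and Kif11 were lost without single arrays (adjusted p up to 0.122 and 0.0505). Bub1b, a spindle checkpoint kinase, rose against these falls: 7.20, 7.12, 6.92 and 7.92, against 6.14, 6.29, 6.21 and 6.26. Cyclin A, Ccna2, rose by 0.60 and thymidylate synthase, Tyms, by 0.46. Histone genes of the replication-dependent clusters had 1 rise and 1 fall among 8 measured (12.5% each way). The rise was H2ac6: 7.11, 6.87, 6.66 and 6.39, against 5.02, 4.70, 5.26 and 4.82, while the linker histone H1f3 fell by 0.54. In the imprinted growth network Slc38a4 and the cell-cycle inhibitor Cdkn1c (-0.80, ages overlapping, lost without single arrays, up to 0.0651) fell and Grb10 (0.59) rose among 14. Igfbp5, a binding protein of insulin-like growth factors, read 8.77, 8.68, 8.82 and 8.51, against 9.96, 10.01, 9.96 and 9.68, and it and Igfbp3 (-0.51, at the level of an absent transcript at 4 months) were the 2 falls among 12 genes of that pathway. The falls were 16.7% of that pathway and 14.3% of the imprinted network, against 5.9% of all genes. The rise in the imprinted network was 7.14%, against 3.71%.

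Photoreceptors are known to turn most of their glucose to lactate, and several genes of glycolysis and lactate transport fell in the null retina. Of 19 genes 6 fell and 1 rose, against 1 fall and 2 rises in WT. In null these were 31.6% and 5.26%, against 5.9% and 3.71% of all genes. Slc16a3, the lactate exporter MCT4, read 7.11, 7.25, 7.21 and 7.15 at 4 months, against 8.62, 8.29, 8.50 and 8.84 at 2 weeks. The older arrays were nearly equal, and the 2.61-fold fall had an adjusted p of 2.77e-06. Pfkfb3, which makes the activator of phosphofructokinase, read 6.51, 6.61, 6.58 and 6.47, against 7.31, 7.32, 7.27 and 7.01. The phosphofructokinase Pfkl fell by 0.55, the glucose transporter Slc2a1 by 0.49, lactate dehydrogenase Ldha by 0.42 and Pgk1 by 0.38, whereas hexokinase Hk1 rose by 0.28. Another Ldha probe set of similar signal (mean 11.41, against 11.52) had a change of -0.22 that was not called (limma adjusted p = 0.417). The fall of Ldha therefore rests on 1 probe set. Its number, 6924962, is close to that of a Cdc20 probe set (6924892) and far from that of the other Ldha probe set (6960498). Which gene it measures is thus less certain too. The 2 other probe sets of Pgk1 were called lower too. Gapdh (0.06) and Pkm (-0.09) were not called. None of these members passed the test of a difference from WT (adjusted p = 0.124 for Slc16a3, 0.194 for Pfkfb3 and 0.261 for Pfkl). Leaving out single arrays ended the calls of Slc2a1 (up to 0.0713) and Hk1 (14 of 16 arrays, up to 0.129).

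The windows of the lactate and glucose transporters are shown as members that fell, with ACGTG, the core letters of the hypoxia response element, in capitals; these letters also occur within the E-box CACGTG.
Slc16a3 (chr11:120948817-120949116, plus strand): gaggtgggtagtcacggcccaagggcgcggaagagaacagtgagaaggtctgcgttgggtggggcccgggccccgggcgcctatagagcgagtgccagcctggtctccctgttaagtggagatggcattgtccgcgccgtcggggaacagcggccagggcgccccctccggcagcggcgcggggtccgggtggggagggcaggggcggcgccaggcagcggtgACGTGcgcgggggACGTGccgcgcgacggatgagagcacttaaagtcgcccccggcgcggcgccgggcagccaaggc
Slc2a1 (chr4:119108495-119108794, plus strand): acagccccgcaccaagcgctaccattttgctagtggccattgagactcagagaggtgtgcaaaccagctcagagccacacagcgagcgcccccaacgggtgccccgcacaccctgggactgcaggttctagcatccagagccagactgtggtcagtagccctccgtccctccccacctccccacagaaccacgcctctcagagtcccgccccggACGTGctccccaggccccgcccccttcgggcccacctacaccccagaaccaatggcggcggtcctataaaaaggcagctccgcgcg
ACGTG or CACGT lay in 19.6% of all windows and in 14 of the 19 glycolysis genes with a window (73.7%), including 5 of the 6 that fell. In the Slc16a3 window the letters occur at 2 places close to the start.

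Lipid genes moved in both directions. Of 17 genes for long-chain fatty acids 4 rose (23.5%) and 2 fell (11.8%), against 3.71% and 5.9% of all genes. Acaca, the carboxylase that commits acetyl-CoA to fatty acid synthesis, read 11, 11.09, 11.01 and 10.95 at 4 months, against 9.94, 10.37, 9.89 and 10.18 at 2 weeks. The desaturase Scd1 read 8.02, 7.95, 8.02 and 7.59, against 6.98, 6.61, 7.10 and 6.82. Both were higher in each older array, 1.89-fold and 2.02-fold, and the desaturase Fads2 (0.60) and the acyltransferase Agpat3 (0.43) rose too. Mfsd2a, which imports docosahexaenoic acid at the blood-retina barrier, read 6.6, 5.98, 7.22 and 6.21, against 7.83, 7.86, 7.80 and 8.62, with replicates 1 and 3 again the higher of the older arrays. Cholesterol synthesis genes had no limma call among 18 (3 higher and 0 lower at an unadjusted p under 0.05). Oxidative phosphorylation had 1 rise (3.7%) and 4 falls (14.8%) among 27, against 3.71% and 5.9% of all genes. The calls of Cycs (-0.42) and Uqcrfs1 (-0.53) were lost without single arrays (adjusted p up to 0.131 and 0.151), which left 2 to 4 falls. Cox8b, a subunit isoform of cytochrome oxidase best known from muscle and brown fat, read 6.62, 6.02, 7.07 and 7.40 at 4 months, against 9.53, 8.53, 9.20 and 8.96 at 2 weeks, a 4.84-fold fall. Sdhd fell by 0.72, and Cox6a1 rose by 0.43 although the mean over all its probe sets gave -0.10. The other Cox6a1 probe set was called in the opposite direction (-0.63, limma adjusted p = 0.00213), so the direction of Cox6a1 is not settled. Among 18 clock genes 2 rose, the output factor Dbp (10.63, 10.79, 10.62 and 10.47, against 10.01, 9.93, 9.94 and 10.27) and Per3 (0.53). The clock rises were 11.1%, against 3.71% of all genes. The time of day at which retinas were taken is not given in the sources used here.

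Of 14 apoptosis genes 3 rose (21.4%, against 3.71% of all genes) and 1 fell (7.14%, against 5.9%). Bcl2, the survival factor, read 7.6, 7.96, 7.83 and 7.69 at 4 months, against 6.31, 7.25, 6.72 and 6.86 at 2 weeks, a 1.97-fold rise. The caspase inhibitor Xiap rose by 0.62 and Diablo, which opposes it, by 0.27, while Bak1, a pore-forming killer of mitochondria, fell by 0.75. Of 15 chromatin genes 1 rose (6.67%), the Polycomb subunit Suz12 by 0.37, and 2 fell (13.3%), Hmgb3 (-0.88) and Hdac1 (-0.49). The calls of Diablo, Suz12 and Hdac1 were lost without single arrays (up to 0.122, 0.133 and 0.082). Of the family that Gtf2ird1 belongs to, Gtf2ird2 read 7.40, 7.65, 7.03 and 7.10 at 4 months, against 6.72, 6.87, 6.88 and 6.57 at 2 weeks. That is a 1.45-fold rise (adjusted p = 0.0233, lost without single arrays, up to 0.0792). Gtf2i read 9.05, 9.06, 8.97 and 9.0, against 8.73, 8.84, 8.79 and 8.64, and with adjusted p = 0.0525 was not called.

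Whether the null retina matured differently was tested against the same ages in WT. In WT 1861 genes were called (9.19%), 887 higher (4.38%) and 974 lower (4.81%). Of the null rises 51.2% rose in WT too (385 genes, 43.4% of the WT rises), and of the null falls 44.9% fell in WT (536 genes, 55% of the WT falls). No gene was called in opposite directions. The WT change had the same sign for 1863 of the 1947 null calls (95.7%). Over all genes the changes had Pearson r = 0.664 and Spearman rho = 0.589, a description over genes that are not independent replicates. The difference between the null change and the WT change passed the test for 2 genes (0.00987%), 1 higher and 1 lower in null (0.00494% each), while 1199 genes had an unadjusted p under 0.05. The WT groups hold both sexes, and with a sex covariate 3 genes passed, Rxrg being added. In these tests each gene stood by 1 probe set. In a fit over all probe sets with 1 gene, a Bpifb6 probe set of low signal (mean 4.99) also passed (difference -1.01, limma adjusted p = 0.0104). In that fit the Bpifb6 probe set used here had a difference of -1.30 and the remaining one -0.96 (limma adjusted p = 0.159 for each).

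**Figure D4:**
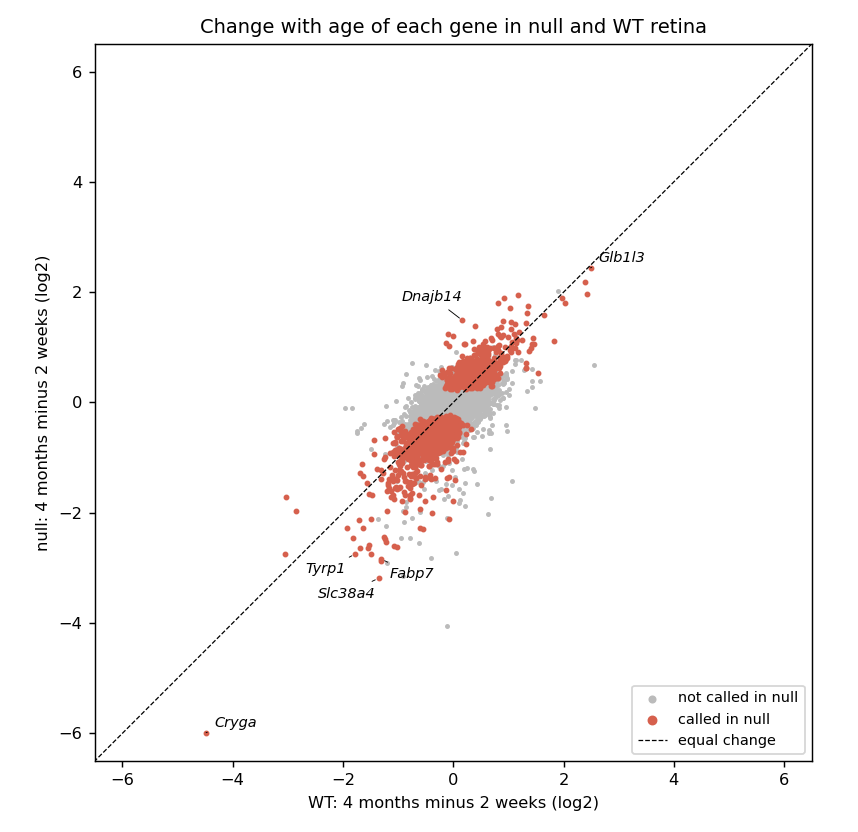
Change with age (4 months minus 2 weeks, log2) of each of 20259 genes in null (vertical) against WT (horizontal) retinas, with the dashed line marking equal change and genes called in null in red. Most called genes have the same sign on both axes (95.7%), and Dnajb14 and Fabp7, named in the plot, are the 2 whose changes differed by the test.

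Fabp7 fell in both genotypes but further in null. In null it read 5.92 to 6.29 at 4 months, against 8.64 to 9.50 at 2 weeks; in WT it read 5.95, 5.80, 6.01 and 5.93 at 4 months, against 7.10, 7.27, 7.28 and 7.27 at 2 weeks. The older groups were close, and the younger null arrays stood above the younger WT arrays by more than 1 log2 unit. The change was -2.84 in null and -1.30 in WT, a difference of -1.54 ± 0.202 (SE; limma adjusted p = 0.0107). Dnajb14 read 10.06, 9.90, 10.17 and 10.12 at 4 months and 8.50, 8.56, 8.66 and 8.58 at 2 weeks in null, against 7.92, 8.02, 7.56 and 7.76 at 4 months and 7.57, 7.32, 7.80 and 7.91 at 2 weeks in WT. Null arrays were above WT arrays at both ages, and only in null did the ages separate; the change was 1.49 in null and 0.16 in WT, a difference of 1.33 (adjusted p = 0.0107). Both kept their calls in each fit that left out 1 array. Neither call was kept after median centring, without moderation of the variances, with the replicate number as a block or with the pigment epithelium covariate, and with the lens covariate Fabp7 alone was called.

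The next genes in order did not pass. On the higher side these were the olfactory receptors Olfr686 (difference 1.11) and Olfr684 (0.71), Tapt1 (0.63), the inositol hexakisphosphate kinase Ip6k3 (1.34) and the chaperone cofactor Dnaja4 (0.70). On the lower side they were the collagen prolyl hydroxylase P4ha1 (-0.70), the axonemal gene Drc3 (-1.13), Zgrf1 (-0.77), Lrrc2 (-0.70) and Slc16a3 (-0.88). Their adjusted p lay between 0.101 and 0.167. In null, Olfr686, Olfr684 and Ip6k3 lay within the level of an absent transcript at 2 weeks. P4ha1 read 9.44, 9.40, 9.34 and 9.31 in null at 4 months, against 10.01, 10.18, 9.90 and 9.96 at 2 weeks, and 9.86, 9.80, 9.58 and 9.75 in WT at 4 months, against 9.77, 9.66, 9.67 and 9.63 at 2 weeks. Drc3 showed the reverse arrangement, with a change of 0.20 in null and 1.34 in WT. Rxrg had a change of -0.90 in null and 0.18 in WT, a difference that did not pass (adjusted p = 0.187). Without replicate 1 of the 2-week WT group, 1 of the arrays with Xist signal, 20 genes passed, and without replicate 2 of that group 9 passed.

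**Figure D5:**
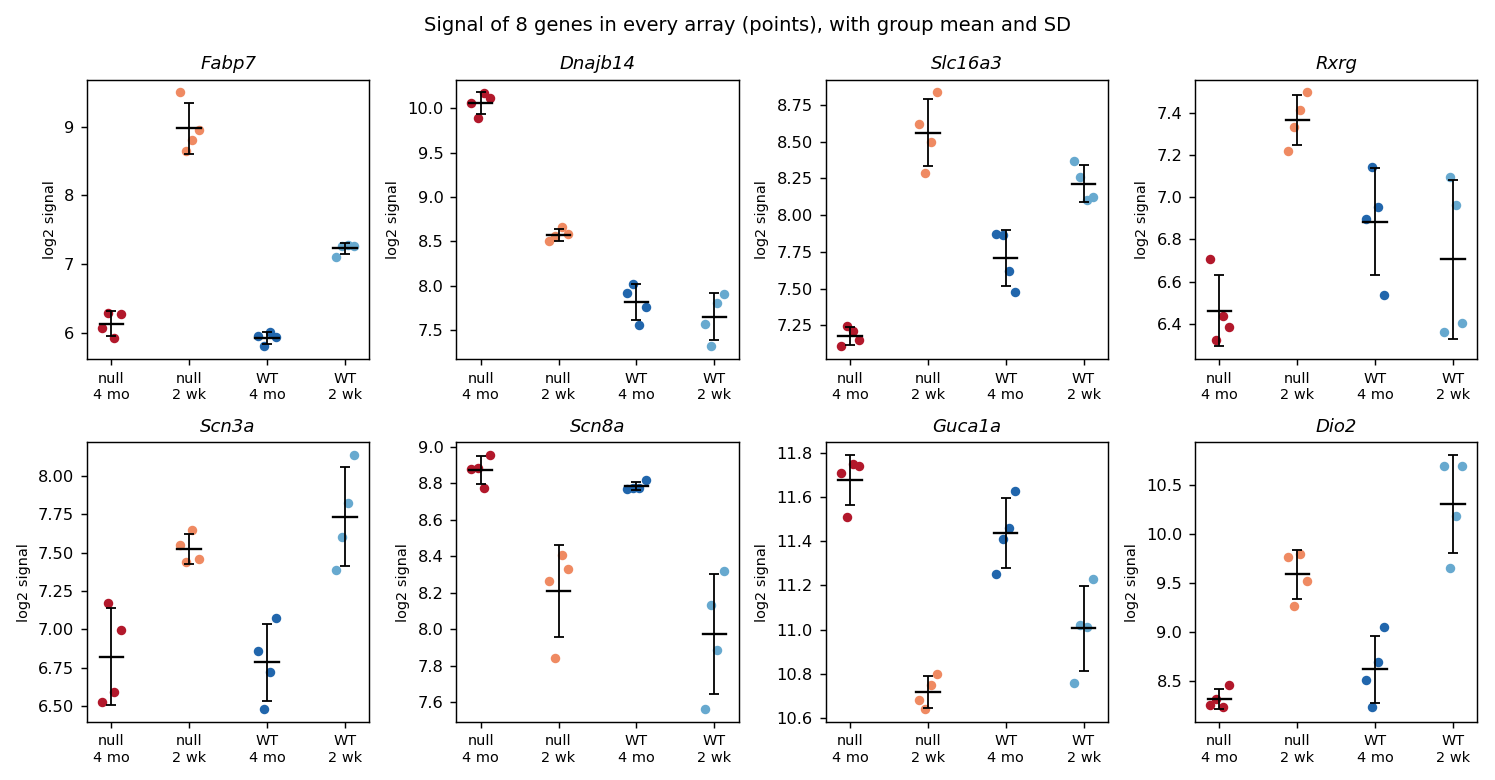
Log2 signal of 8 genes in each of the 16 arrays, by genotype and age; bars give the mean and SD (n = 4). Fabp7 and Dnajb14 are the genes whose change differed between genotypes; Slc16a3, Rxrg, Scn3a, Scn8a, Guca1a and Dio2 are shown beside them and did not pass that test.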

How the data were processed

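Total RNA of single retinas was hybridised to mouse exon arrays, per the labels' protocols. Partek, RMA and the build mm8 appear, without version or order, per the submitters' processing notes. The deposited values are on a log scale, read as log2 because none reached 16 (from the values; the labels do not state the base). Of 115830 probe sets, 25539 had 1 gene symbol in the platform annotation, 2300 had several and 87991 none, and 24941 of the first kind had their gene ID in the RefSeq gene table. Only probe sets with 1 symbol were used, and 3109 genes had several, of which the one with the highest mean stands for the gene. Array signal carries no count depth; the number of arrays limits the precision.

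One limma model (version 3.58.1, R 4.3.3) with the 4 group means was fitted to all 16 arrays without further normalization, and the Benjamini-Hochberg adjustment ran over all 20259 genes. Single genes were also compared by a two-sided exact permutation test. Scripts were tested on simulated data. The labels call the replicates biological but do not say whether each retina came from a separate mouse, so p-values measure the spread between these retinas. The genes and lists were chosen with earlier results of these data known. Named are the 12 largest rises and falls among called, non-overlapping genes at or above the median signal with no predicted name, up to 4 called members per list and direction, the TFII-I family and chosen photoreceptor genes, and the 6 genes each way with the smallest p for the difference from WT. Beside these, a few well-known list members were named after their values were seen. Of the 786 distinct listed genes 678 had a probe set, and the rest were not analysed here; another item is not reported here. A probe set's row was called apart from its chromosome when none of the 10 annotated rows before or after it lay there, which held for 550 of 19800 genes, 89 of them called.

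Alternatives covered normalization, filtering, the choice of probe set, the variance model, the replicate number as a block, sex, thresholds and leaving out each array. Leaving out arrays for list members beyond the named genes, and the comparison with the signal of the deleted Gtf2ird1 probe sets, were added after the data were seen. Refits with the lens or pigment epithelium mean, and without misplaced rows, were chosen after seeing the data.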

Additional observations from a re-analysis of the deposited data

Results flagged for a closer look

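The test of a difference between genotypes flagged Dnajb14, whose change with age was greater by 1.33 log2 in null than in WT retinas, and Fabp7, whose change differed by -1.54. Single arrays stood apart from the other 3 of their group by Dixon's criterion for 23 of 368 pairs of a gene and a null group, or 6.25%, where chance flags about 1 in 20. At 4 months these were Cryga in replicate 1 (8.21), Guca1a (11.51), Cacna1f (11.76), Bgn (5.38) and Gabrb2 (10.65) in replicate 2, and Gnb1 (11.37) and Krt13 (5.22) in replicate 4. At 2 weeks, replicate 2 stood apart for Irx6 (6.67), Marcksl1 (9.02), Myh1 (8.09) and Eif2s3y (9.69). Replicate 3 did so for Cdh5 (8.33), Tubb2b (7.03), Cycs (11.69), Cnp (5.67) and the Gtf2ird1 probe set 7008782 (10.60). Replicate 4 did so for Nrep (9.31), Igfbp5 (9.68), Gabra4 (8.01), Mfsd2a (8.62), Pfkfb3 (7.01), Dio3 (5.15) and Diablo (7.66).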

How the results depend on the processing

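Of 152 named genes called in null, 10 kept the call in each of the 32 alternatives that tested them (Glb1l3, Tcea3, Syne3, Pde8a, Dnajb14, Fabp7, Bpifb6, Guca1a, Apln and Slc16a3), 142 lost it in at least 1, and 49 lost it by leaving out 1 array. Not every gene entered every alternative, and Tcea3 was tested in 31. The count of genes higher at 4 months was 465 after median centring, 1348 with array weights, 1142 at an adjusted p under 0.1, 233 with a fold of at least 1.5, 263 with the lens covariate and 14 with the pigment epithelium covariate. The count of lower genes was 2152 with array weights, 593 with the fold, 612 with the lens and 34 with the pigment epithelium covariate. In WT 2903 genes were called with array weights, 2797 at 0.1, 677 with the fold and 1102 with the pigment epithelium covariate. The difference from WT gave 0 genes after median centring, without moderation and with the pigment epithelium covariate, 1 with the lens covariate and 38 with array weights. Leaving out 1 array gave 475 to 1047 higher genes (475 without 4-month null replicate 2), 753 to 1608 lower genes (753 without 4-month null replicate 4), 1117 to 2606 WT calls and 2 to 20 genes for the difference. With the replicate number as a block 630 genes were higher, 1064 lower, 1546 called in WT and 0 different. Deviations of same-numbered null arrays of the 2 ages from their group means had correlations of -0.0136, -0.272, 0.00956 and 0.0303. Those of WT arrays had -0.0796, 0.186, -0.0716 and 0.214. So few values cannot decide whether the numbers pair the samples. Changes turned in sign for Cox6a1 with the mean over all probe sets (-0.10) and, with the pigment epithelium covariate, for Tyrp1 (0.00597), Dct (0.44), Lrat (0.080), Gtf2ird2 (-0.069), Oca2 (0.0072) and Ermn (0.072). The pigment epithelium mean does not overlap between the null ages, so that covariate and age cannot be told apart in null; the cause of the other shifts was not tested.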
